A study of Mus musculus with 2 samples.

Results

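The 10 genes described here, Notch1, Jag1, Hes1, Hes5, Id1, Id2, Id3, Id4, Lingo1 and Omg, encode known inhibitors of oligodendrocyte differentiation. They were listed by name, and every probe set that the annotation of the Affymetrix Mouse Genome 430 2.0 Array pairs with only that gene was taken. This gave 19 of 45101 probe sets, and 10 of 18194 genes. Each gene had at least 1 such probe set.

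Oligodendrocyte precursors receive signals that delay their conversion into myelinating cells. Jagged ligands on neighbouring cells and axons activate Notch receptors, which are cleaved so that their intracellular part can join the DNA-binding protein RBPJ and switch on Hes genes, whose products repress genes of differentiation. Id proteins act by another route: they have a helix-loop-helix but no DNA-binding region, and hold the E proteins that partner Olig factors, and they are induced by bone morphogenetic proteins (BMPs). Lingo1 and Omg belong to the Nogo receptor system at the cell surface, Lingo1 as a co-receptor and Omg as a ligand. In brain none of the 10 is restricted to the oligodendrocyte lineage, since Id and Hes genes are also used by astrocytes, neural progenitors and endothelium, and Lingo1 and Omg by neurons.

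The study compared cerebrum RNA of a wild-type mouse and of a laggard (lag) mutant at postnatal day 14, to learn which molecular changes go with the disease of the mutant. The mutants were lag/lag, homozygous for a spontaneous splice site change in Kif14, a kinesin gene acting in cytokinesis, which arose on a mixed background and was repeatedly backcrossed to C57BL/6J. The control was a littermate by the design of the series, and no treatment is given for either. How many mice were used for each array and their sex are not stated. With 1 array per genotype, variation among animals was not measured and nothing was tested. Because whole tissue was measured, fewer cells of a type and less RNA per cell cannot be told apart.

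Values are MAS5 signals, which are linear intensities scaled globally on each array. The background level, the signal below which a probe set was taken as not detected, was 57.3 for the wild-type and 51.1 for the mutant. It was set from probe sets of gene families with little use in brain, such as olfactory receptors. Paired values below give the wild-type first. The only Kif14 probe set lay below background on both arrays, at 6.85 and 0.733, and does not check the labels. There were 13681 genes detected on either array, called measured genes here. The mutant signal was lower by 2-fold or more in 0.987% of them and higher by that much in 0.607%. At 1.5-fold the shares were 3.5% lower and 3.81% higher. In the 12772 genes that exceeded background on each array, the log2 ratio of mutant over wild-type had a median of 0.01 and an SD of 0.33. These genes were divided by mean signal into 4 classes of 3193, and the SD was 0.41 in the dimmest class and 0.26 in the brightest.

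None of the 10 genes differed 2-fold between the arrays, against 0.987% of measured genes lower and 0.607% higher by that much, while all 9 measured genes of a mature oligodendrocyte list were lower by at least that much. Those 9 are on the study's own list of decreases, drawn from these samples, and are no independent evidence. Taking for each gene its brightest probe set, 4 of the 10 had a lower and 6 a higher mutant signal, and the median log2 ratio was 0.13. Only Notch1, at 1.63-fold lower, passed 1.5-fold, as 3.5% of measured genes did in that direction, and its other probe set went the other way. The remaining genes lay between 1.15-fold lower (Id3) and 1.30-fold higher (Hes5). The size of the change regardless of direction had a median of 1.14-fold for the 10 genes and 1.11-fold for all genes above background on both arrays. At the level of probe sets, 10 of the 19 were lower and 9 higher, with a median of -0.03. All 19 were above background on both arrays.

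**Figure D1:**
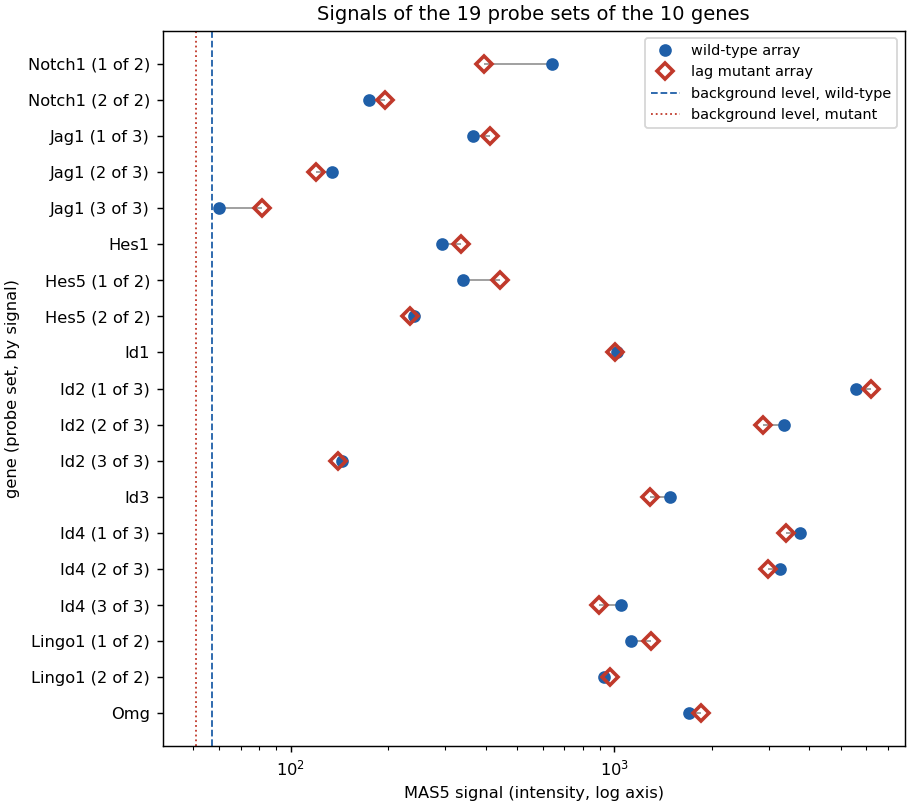
MAS5 signal (log axis) of each of the 19 probe sets on the wild-type array (filled circles) and the lag mutant array (open diamonds), 1 array per genotype, with the background level of each array as a vertical line. The widest gap is that of the brighter Notch1 probe set, from 643 to 395, and all symbols lie to the right of the background lines, the closest being a Jag1 probe set at 60.0 on the wild-type array.

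Notch1 encodes the receptor through which Jagged ligands hold back oligodendrocyte precursors. Its brighter probe set went from 643 on the wild-type array to 395 on that of the mutant, a log2 ratio of -0.70. Its other probe set gave 174 and 195, in the same order, a log2 ratio of 0.16. The probe sets of this gene therefore disagreed in direction, and the mean of their log2 ratios was -0.27. Of the 3193 genes in the same brightness class, 130 (4.07%) had a ratio at least as far from 0 as the brighter probe set, which lay 1.98 SD below 0. Ordered from the lowest ratio up, Notch1 was at place 249 of the 12772 genes. A gap between probe sets as wide as that of Notch1, 0.87 on the log2 scale, was found in 143 of 3468 genes with a pair of probe sets above background (4.12%), where the median gap was 0.23. Where on the transcript each probe set lies was not analysed here.

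Jag1 encodes a ligand of Notch1 that axons and endothelium carry. Its brightest probe set gave 367 for the wild-type and 412 for the mutant, a log2 ratio of 0.17. The other Jag1 probe sets had 134 and 120, and 60.0 and 81.4, the last only just above the wild-type background level. The 3 probe sets thus gave log2 ratios from -0.17 to 0.44, and no direction common to all. A gap at least as wide occurred in 24.3% of the 1395 genes with 3 probe sets above background. The ratio of the brightest Jag1 probe set was equalled or exceeded in size by 51.6% of its brightness class. Over the 8 probe sets of Notch1, Jag1, Hes1 and Hes5, 3 were lower and 5 higher, with a median log2 ratio of 0.17.

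Hes1 and Hes5 encode the repressors that Notch switches on. The Hes1 probe set gave 292 for the wild-type and 336 for the mutant, 1.15-fold higher. For Hes5, the brighter probe set had 340 and 443, 1.30-fold higher. The dimmer one had 240 and 234, a log2 ratio of -0.04. The brighter Hes5 probe set is of a type that Affymetrix marks with _x_ for possible cross-hybridisation, and the dimmer one carries no such mark. In the brightness class of Hes5, 18.2% of genes had a ratio at least as far from 0 as that of the brighter probe set, and for Hes1 44.6% did. Neither gene thus had a lower signal beyond 1.03-fold on any probe set.

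Because Hes5 is a direct target of RBPJ, its promoter was searched for the 6 letters at the core of the RBPJ site, TGGGAA, on both strands. The promoter table of RefSeq (GRCm38.p6), with 250 bases before and 50 after a transcript start, held 7 of the 10 genes. Hes5 had 2 matches and Id4 had 1, while the promoters of Notch1, Jag1, Id2, Id3 and Lingo1 had none. The motif is common, occurring in 25.6% of all 32851 promoters of this length. The matches are shown on the gene's strand, each in a stretch of 30 bases with the motif or its reverse complement in capitals. Those of Hes5 begin 82 and 226 bases before the transcript start of the table (chr4:154960829-154960858 and chr4:154960685-154960714, plus strand), and that of Id4 245 bases before it (chr13:48260866-48260895, plus strand). That Hes5 start lies 297 bases inside the gene as RefSeq spans it, so both Hes5 matches fall inside that span.
Hes5 proximal: ggccgccgagtgTGGGAAcggccgcggcgc
Hes5 distal: agggcgagcgcgTTCCCAcagcccggacat
Id4: tgcccTTCCCAttggcccgagcgtcattcc
A match is a description of these letters and not evidence of binding. Hes5, with 2 matches, had the ratios given above, and Id4, with 1, was lower on each of its probe sets. The E box CANNTG, at which E proteins bind, and the N box CACNAG, at which Hes proteins bind, were also searched on both strands. An E box was in promoters of Jag1, Hes5, Id2 and Lingo1 and in 72.3% of all promoters, and an N box in those of Notch1, Id2, Id4 and Lingo1 and in 42.5% of all. For Lingo1 both motifs were in the promoter whose start lies 160662 bases inside the gene. Neither was in the promoter at its first base.

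The Id genes, whose products hold E proteins away from DNA, stayed within 1.18-fold on every probe set. Of their 8 probe sets, 7 had a lower and 1 a higher signal in the mutant, with log2 ratios from -0.23 to 0.15 and a median of -0.14. Id1 was nearly equal, at 1022 and 1002. Id3 had 1481 and 1293, 1.15-fold lower. These genes are targets of BMP signalling in glia and endothelium. Id4, which is prominent in astrocytes and precursors, was lower on all 3 probe sets, which had signals of 3757 and 3386, 3252 and 2989, and 1051 and 894. Their log2 ratios lay within 0.11 of each other, a gap that 92.4% of genes with 3 probe sets equalled or exceeded, so Id4 was among the genes whose probe sets differed least. Id2 had the only higher probe set of the family, its brightest, at 5580 against 6198. The other Id2 probe sets had 3331 and 2879, and 144 and 140, so that Id2 has no settled direction. Of genes in the same brightness class, 34.2% to 88.5% had ratios at least as far from 0 as each of the 4 Id genes.

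Lingo1 and Omg act at the surface of oligodendrocytes and axons. Lingo1, the co-receptor, gave 1126 for the wild-type and 1299 for the mutant on its brighter probe set, 1.15-fold higher. Its other probe set had 927 and 971, 1.05-fold higher. Omg, the ligand also known as oligodendrocyte myelin glycoprotein, had 1705 and 1847, 1.08-fold higher. All 3 probe sets were thus slightly higher in the mutant, by less than the SD of genes of like brightness, 0.27 for Lingo1 and 0.26 for Omg on the log2 scale. In their brightness classes, 31.7% of genes had ratios at least as far from 0 as that of Lingo1 and 47.0% as that of Omg. The probe sets of Lingo1 lay 0.14 apart, less than the median gap of 0.23. Mag, a myelin glycoprotein that signals through the same receptors, differed in the same comparison by 14.3-fold, from 910 to 63.5.

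**Figure D2:**
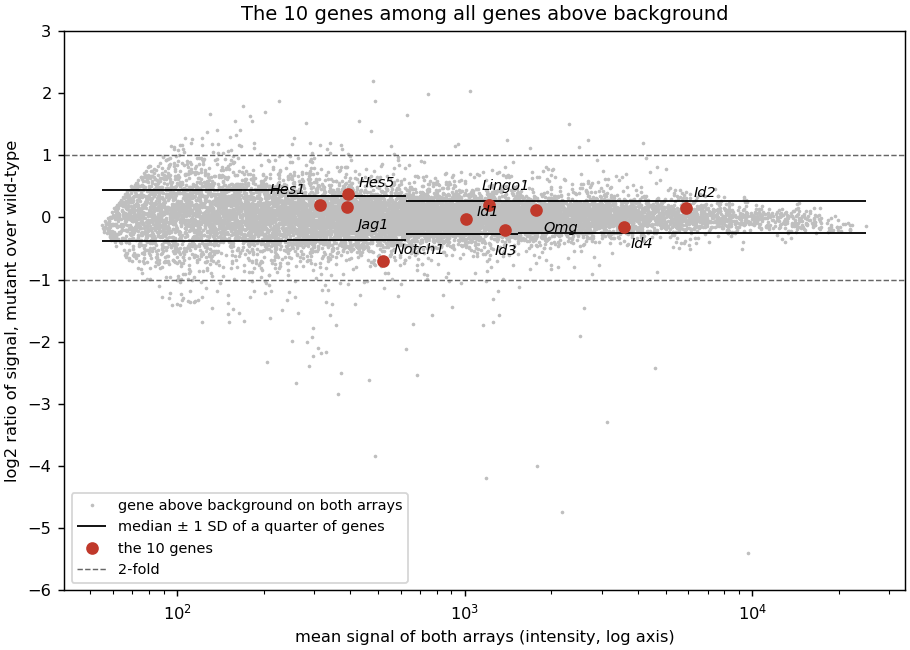
Log2 ratio of signal, mutant over wild-type, against mean signal of both arrays (log axis) for the 12772 genes above background on both arrays (grey), with the 10 genes in red; black lines show the median ± 1 SD in each of the 4 brightness classes, and dashed lines 2-fold. The 10 genes lie inside the 2-fold lines, 8 of them less than 1 SD of their class from 0, and Hes5 at 0.38 and Notch1 at -0.70 farther than that.

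**Figure D3:**
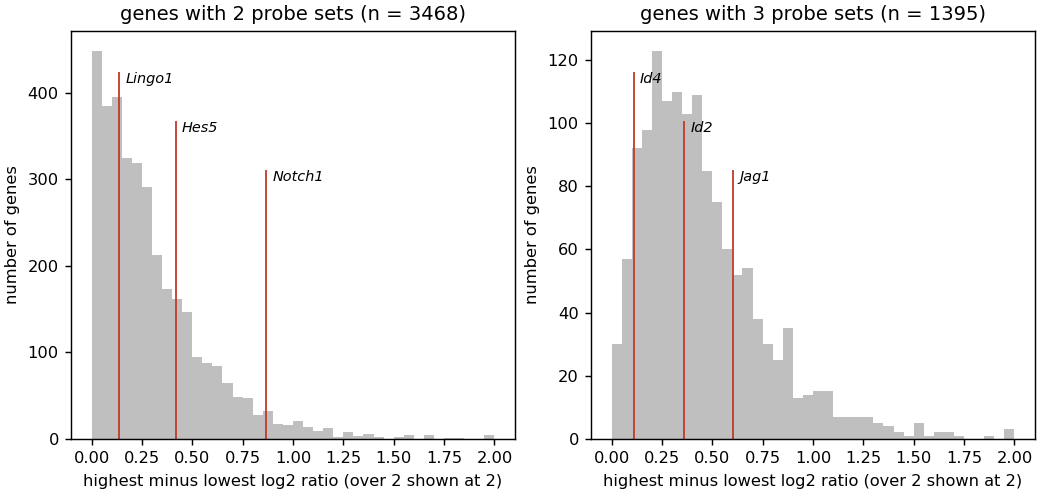
Number of genes by the gap between the highest and the lowest log2 ratio of their probe sets above background, for genes with 2 (left) and 3 (right) such probe sets; red lines mark the 6 of the 10 genes with more than 1 probe set. Notch1, with a gap of 0.87, lies far out in the left panel, and Id4, with 0.11, near the lower end of the right.

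Other genes of these pathways were read from 7 lists of 120 genes, of which 103 were measured. Of the 103, 2 (1.94%) were lower by 2-fold or more and 0 higher by as much, against 0.987% and 0.607% of all measured genes. At 1.5-fold, 6 (5.83%) were lower and 2 (1.94%) higher, against 3.5% and 3.81%. The median log2 ratio was -0.07. Both genes past 2-fold, Mag and Gpr17, are on the study's own list of decreases, which was drawn from these samples and is therefore not independent evidence.

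Among the 12 other Notch ligands and receptors no gene passed 1.5-fold in either direction on its brightest probe set, and the median log2 ratio was 0.06. The brightest were Dner, a neuronal Notch ligand, at 10823 and 11287, and Cntn1, an axonal contactin that can bind Notch, at 10069 and 9904. Both had dimmer probe sets with lower mutant signals, at log2 ratios down to -0.17 for Dner and -0.75 for Cntn1. Dimmer probe sets past 1.5-fold lower were also found for Jag2 and Notch3. That of Jag2 had 257 and 164, and that of Notch3 had 81.7 and 39.6, the latter below background on the mutant array. Notch2, a second receptor, had 502 and 374, 1.34-fold lower. Dll1, a Delta ligand, had nearly the same signal on both arrays, 234.2 and 233.8. Jag2, Notch3, Notch2 and Dll1 were named after their values were seen, as are the genes below that are neither past 2-fold nor among the brightest of their list.

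The genes that cleave, glycosylate or sort Notch were measured for 23 of 25. By brightest probe set, 16 were lower, 7 higher and none past 1.5-fold, with a median of -0.11. Dimmer probe sets passed 1.5-fold for Mib1, at log2 ratios of 0.91 and -0.61, and for Neurl1a, at -0.98. One of Itch did so as a bound, at -0.63. Dtx2 had -0.55 on its brighter probe set and 0.38 on the other. Adam10, the protease that makes the first ligand-dependent cut, had 3491 and 4478 on its brightest probe set, 1.28-fold higher, and 768 and 817 on another. Psenen, a subunit of gamma-secretase, which makes the next cut, had 2951 and 2361, 1.25-fold lower. Of 12 measured nuclear partners and targets, 8 were lower and 4 higher, none past 1.5-fold on its brightest probe set, with a median of -0.16. Tle4, a corepressor of Hes proteins, had 2934 and 3048 on its brighter probe set and 117 and 190 on the other. Nrarp, a target that feeds back on Notch, had 1932 and 1330 on its brighter probe set, 1.45-fold lower, and 292 and 280 on the other. Hey1, a repressor related to Hes, had 1029 and 828, 1.24-fold lower. Rbpj itself had 794 and 696 on its brightest probe set, 1.14-fold lower, and log2 ratios of -0.10 and -0.83 on the others.

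The E proteins and other basic helix-loop-helix factors, with which Id and Hes proteins interact, were measured for 10 of 15 genes, 8 of them lower and 2 higher, with a median of -0.16. By brightest probe set, the 2 past 1.5-fold were Olig1, from 6031 to 3267, and Olig2, from 1134 to 611. These are lineage factors of oligodendrocytes that the study's list of decreases also holds. The E protein gene Tcf4 had 8781 and 7726 on its brightest probe set, 1.14-fold lower, but other bright probe sets were higher, at 5837 and 6142 and at 4151 and 4428. Tcf3, a further E protein gene, had 538 and 388 on its brightest probe set, 1.39-fold lower, and 161 and 106 on another. Tcf12, also an E protein gene, had 2524 and 2412 on its brightest probe set. Its dimmer probe sets had log2 ratios down to -1.37, from 366 to 142.

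BMP pathway genes, upstream of the Id genes, had 10 of 18 measured members lower and 8 higher, with a median of -0.04. The brightest were the receptor gene Bmpr2, at 6437 and 6470 on its brightest probe set and in opposite directions on the others, and the signal mediator gene Smad4, at 3055 and 2675. The other Smad4 probe sets were higher, at 1107 and 1215 and at 1845 and 1861. A ligand passed 1.5-fold in each direction. Bmp4 had 495 and 262, 1.89-fold lower, on its only probe set. Bmp7 had 281 and 494 on its brightest probe set, 1.76-fold higher, and was higher on its other probe sets too, at 147 and 235 and at 65.5 and 96.2.

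In the Nogo receptor system, 12 of 15 genes were measured, 5 lower and 7 higher, with a median of 0.18. Rtn4, which encodes the ligand Nogo, had 17303 and 16912 on its brightest probe set and log2 ratios down to -0.70 on dimmer ones. The effector GTPase gene Rhoa had 4993 and 6255, 1.25-fold higher, and 3831 and 3901 on another probe set. Rtn4r, the Nogo receptor to which Lingo1 couples, had 280 and 419 on its only probe set, just past 1.5-fold higher. Its relative Rtn4rl1 had 490 and 663, 1.35-fold higher, and its relative Rtn4rl2 had 588 and 493, 1.19-fold lower. Lingo2 and Lingo3 were both 1.13-fold higher. Mag, as given above, was the only gene of this list past 2-fold.

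Among 16 other genes listed as regulators of oligodendrocyte differentiation, 14 were lower and 2 higher by their brightest probe set. Their median was -0.19, against 0.01 for all measured genes. Some of the lower genes were higher on all other probe sets above background on both arrays. Log2 ratios there were 0.01 to 0.32 for Apcdd1, 0.16 to 0.40 for Sox5, 0.20 for Egfr and 0.04 for Cd44. Ctnnb1, Lef1, Sox6 and Tnfrsf21 were lower on each such probe set. Gpr17, a receptor of immature oligodendrocytes, was 18.4-fold lower, from 2259 to 123. Sox6, which is expressed in precursors, was 1.68-fold lower, from 890 to 531 on its brightest probe set. The brightest genes were Ctnnb1, the effector of Wnt signalling, at 14501 and 13397, and Ptprz1, a phosphatase of precursors and astrocytes, at 6627 and 5576. The other Ptprz1 probe sets had 5194 and 5396, and 3403 and 2514, and so disagreed in direction. Tcf7l2, a partner of Ctnnb1 in the oligodendrocyte lineage, had 2395 and 3029 on its brightest probe set, 1.26-fold higher. Its other probe sets had 1306 and 1995, 343 and 524, and 85.7 and 85.6.

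**Figure D4:**
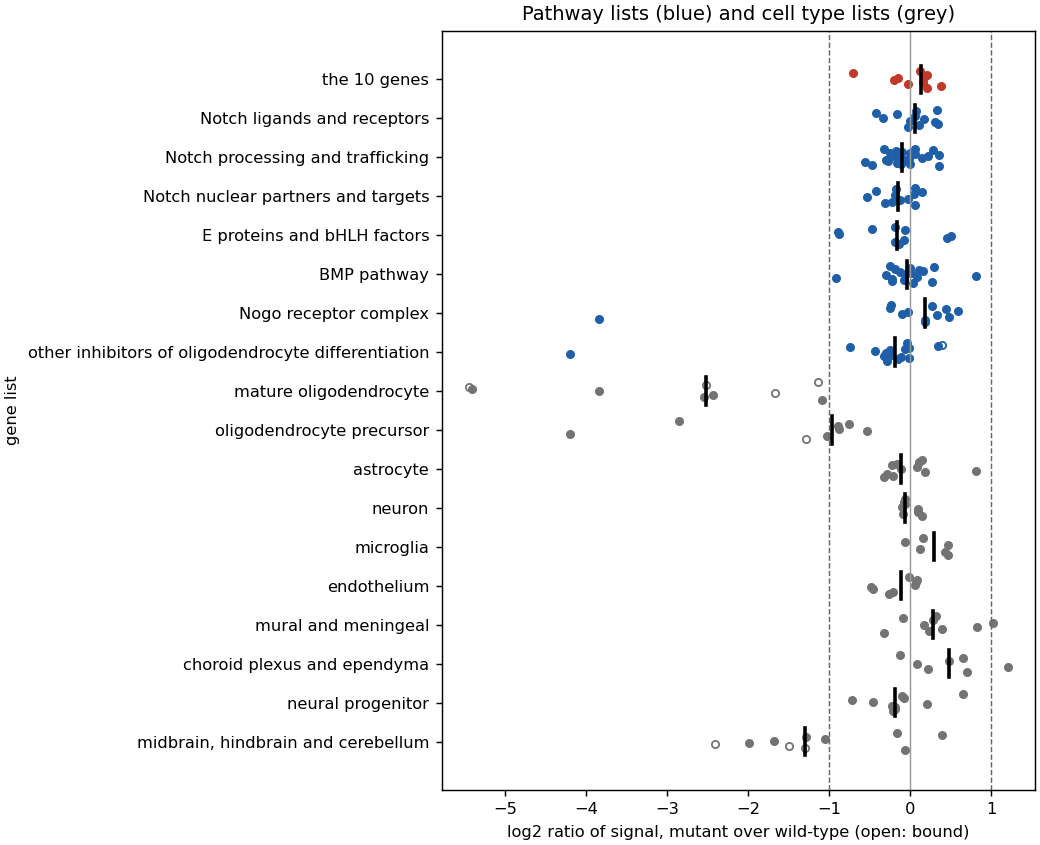
Log2 ratio of signal, mutant over wild-type, for each measured gene of the 10 (red), of 7 pathway lists (blue) and of 10 cell type lists (grey); open circles are bounds where 1 array was below background, black bars are medians and dashed lines 2-fold. The 10 genes have a median of 0.13, between those of the oligodendrocyte lists, -2.52 and -0.96, and that of choroid plexus and ependyma, 0.48.

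Cell type markers differed unevenly between the arrays. Each is given by its brightest probe set. Mbp, Slc1a2, Gja1 and Ttr each had dimmer probe sets that were higher in the mutant. Pdgfra also had such a probe set, at 44.5 and 62.3, below background on the wild-type array. The mature oligodendrocyte list, whose 9 measured genes the study had picked for their decrease in these samples, had a median log2 ratio of -2.52, with Mbp from 18812 to 444 and Cnp from 7730 to 1434, and its summed signal was 31697 and 2404. The precursor list, 4 of whose genes (Sox10, Olig1, Olig2 and Gpr17) the study had likewise picked, had all 8 measured genes lower, a median of -0.96 and a summed signal of 14796 and 7004, with Olig1 as above and Pdgfra from 2508 to 1481. The neuron list, with Stmn2 at 17992 and 16820 (15528 and 18284 on its other probe set) and Snap25 at 15349 and 16408, had a summed signal of 96459 and 96171. Astrocyte markers, with Slc1a2 at 13097 and 11696 and Gja1 at 9823 and 9101, were lower for 6 of 11 genes, with a median of -0.11 and a summed signal of 47994 and 43634. Endothelial markers, with Slc2a1 at 2056 and 2135 (1217 and 1084, and 941 and 756, on the others) and Cldn5 at 1650 and 1420, were lower for 5 of 8 genes, with a median of -0.12 and a summed signal of 5610 and 5289. Medians were -0.19 for neural progenitors (8 of 10 lower, summed signal 25757 and 24316), 0.29 for microglia (5 of 6 higher, 6947 and 7920), 0.28 for mural and meningeal cells (7 of 9 higher, 14643 and 16973) and 0.48 for choroid plexus and ependyma (6 of 7 higher, 23636 and 22229). The list of midbrain, hindbrain and cerebellum had a median of -1.30, with 7 of 10 measured genes past 2-fold lower, 3 more below background on both arrays, and a summed signal of 8399 and 8686. Most of that sum came from Zic1, at 4938 and 6469, and most of the choroid plexus and ependyma sum from Ttr, at 22753 and 20819. The part of these marker differences in the ratios of the 10 genes was not tested.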

How the data were processed

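RNA from the cerebrum was measured on Affymetrix Mouse Genome 430 2.0 Arrays, with 1 array for each genotype. The authors computed the deposited intensity values in MAS5.0 under Affymetrix defaults and scaled each array globally, to a target the sources do not state. The submitters' processing notes name MAS5.

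Of 45101 probe sets, the annotation gave a single gene for 34958, more than 1 for 932 and no gene for 9211. Only the first kind was used. Of these, 34754 were matched by gene identifier to the RefSeq table of GRCm38.p6 and took the symbol given there. The background level was the 95th percentile of 151 probe sets of the Olfr, Vmn1r, Vmn2r, Tas1r, Tas2r, Krtap, Defa and Defb families. Each gene was represented by its brightest probe set, by the mean of both arrays. Where 1 array was below background the fold is a bound against that array's level, and where both were, or where the bound fell below 1-fold, none was given. Python 3.11.15, numpy 2.4.6, pandas 2.3.3 and matplotlib 3.10.9 were used, and the calculation was tested on simulated data. Genes and lists were chosen with earlier results of these data known. Named are all 10 genes and, from each pathway list, genes past 2-fold (at most 4 each way) and the 2 brightest. The rule also took the 2 brightest genes of each cell type list, which are given for the oligodendrocyte, precursor, neuron, astrocyte and endothelial lists, while the other cell type lists are summarised. Any other gene was chosen with its values in view. A planned comparison of protein sequences was not run. The number of arrays limits the precision. Median signals were 105 (wild-type) and 98.3 (mutant). The alternatives changed the probe set, the normalization and the background level.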

Additional observations from a re-analysis of the deposited data

How the results depend on the processing

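No paired analysis was possible because a single array was made per genotype. The 9 alternatives changed the probe set, the normalization or the background level. None of the 10 genes reached 2-fold under any of them. When the log2 ratios of a gene's probe sets were averaged, 0 of the 10 were at least 1.5-fold lower, since Notch1 was then at -0.27. Of 89 ratios of the 10 genes under alternatives, 4 moved by more than the SD of genes of like brightness. Besides that of Notch1 these were Hes5, at -0.04 under both the largest-decrease choice and a restriction to probe sets without _x_, _s_ or _a_, and Id2, at -0.21 with the largest decrease. Id2 was also under 0 with averaging, at -0.04, and with that restriction, at -0.05. Jag1 turned with the largest decrease alone, to -0.17. Notch1, Id3 and Id4 stayed lower and Hes1, Lingo1 and Omg higher under every alternative. Id1 reached 0.0023 at its highest. The median of the 10 ranged from -0.10 to 0.16. The lowest value came with the probe set of largest decrease, which moves the median of all genes to -0.07. With that choice the median of the other Notch ligands and receptors was -0.17. Each list median was compared with an interval taken from the ranked ratios of its own genes, and 152 of 153 stayed within it. In the shortest lists this interval runs from the lowest gene to the highest, as for microglia from -0.07 to 0.46. A median of the same genes can hardly leave it, so no conclusion is drawn from the count. Genes at least 2-fold lower and higher, 135 and 83 of 13681 here, were 287 and 56 of 13685 with the largest decrease. They were 162 and 174 of 14645 for a background at the 90th percentile, and 74 and 31 of 11247 at the 99th. With no level all 18194 genes were counted, giving 314 and 336 with 16 added, and 980 and 1232 with neither.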
